A study of Mus musculus with 9 samples.

Results

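Twist1, Twist2, Prrx1, Prrx2, Meox1, Meox2, Tcf15, Scx, Mkx and Tcf21 encode transcription factors that build somites, limb buds, tendon and the connective tissue of muscle in the embryo. They were followed in muscle stem cells (satellite cells) through every non-control array probe that carries one of these gene names. There were 11 such probes for the 10 genes, among 55681 non-control probes in all, with 2 probes for Prrx1. Mice were Bmi1-deficient (KO) or wild type (WT). All were of the FVB strain background, labelled male and 2 months old. The sort on muscle digests kept cells with integrin alpha-7 and CD34 on the surface and left out those with CD31, CD45, CD11b or Sca1. Their RNA was amplified and hybridised in Cy3 to arrays of 1 colour, 6 of KO and 3 of WT. Which part of Bmi1 is missing, in which cells it was deleted, and whether animals were pooled were not stated. The comparison sets muscle stem cells lacking Bmi1 against WT ones, in a series on quiescence and senescence of these cells.

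Bmi1 belongs to Polycomb repressive complex 1, which with its partner complex 2 keeps many developmental transcription factor genes silent in cells where they are not used. Twist1, Twist2, Tcf15, Scx and Tcf21 are basic helix-loop-helix (bHLH) proteins, which pair with the widely expressed E proteins and bind E-box sequences in DNA. Prrx1, Prrx2, Meox1, Meox2 and Mkx are homeodomain proteins. In adult muscle most of these genes are known from fibroblasts, fibro-adipogenic progenitors and tendon cells rather than from satellite cells, though Meox1 and Meox2 act in the somite from which limb muscle precursors come, and Twist1 is known as an inhibitor of myogenic differentiation in mouse cells.

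Promoters are shown for the 3 genes with an unadjusted p under 0.05 below, Twist1, Twist2 and Meox2. The sequences are those of RefSeq in the build GRCm38.p6, from 250 bases before to 50 after the annotated start, in the direction of transcription. A promoter sequence matched 6 of the 10 members (these 3, Prrx1, Prrx2 and Tcf21). Capitals mark, on either strand, the TATA box word TATAAA, the word of the CCAAT box and the GC box word GGGCGG, all known from textbook promoters. Twist1 lies at chr12:33957421-33957720 (plus strand), Twist2 at chr1:91801211-91801510 (plus strand) and Meox2 at chr12:37108290-37108589 (plus strand).
Twist1 promoter: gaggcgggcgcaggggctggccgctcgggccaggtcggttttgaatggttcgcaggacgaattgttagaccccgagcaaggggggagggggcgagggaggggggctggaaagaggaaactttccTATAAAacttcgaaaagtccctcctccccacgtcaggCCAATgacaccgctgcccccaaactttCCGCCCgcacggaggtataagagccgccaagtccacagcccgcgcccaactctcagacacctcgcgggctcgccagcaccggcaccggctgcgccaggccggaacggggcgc
Twist2 promoter: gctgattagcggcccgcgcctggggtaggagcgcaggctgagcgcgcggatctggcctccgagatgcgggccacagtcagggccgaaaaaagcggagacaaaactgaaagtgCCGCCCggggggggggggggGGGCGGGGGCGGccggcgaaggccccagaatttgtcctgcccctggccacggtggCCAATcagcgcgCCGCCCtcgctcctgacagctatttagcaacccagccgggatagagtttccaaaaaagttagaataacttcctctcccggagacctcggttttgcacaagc
Meox2 promoter: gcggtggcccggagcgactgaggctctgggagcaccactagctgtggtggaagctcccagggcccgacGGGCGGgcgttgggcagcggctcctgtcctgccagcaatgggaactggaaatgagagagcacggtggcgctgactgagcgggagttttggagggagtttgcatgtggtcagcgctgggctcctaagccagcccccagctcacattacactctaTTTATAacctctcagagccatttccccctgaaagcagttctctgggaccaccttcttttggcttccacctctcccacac
The Twist1 and Twist2 windows resembled each other in composition, with 27 CpG dinucleotides in Twist1 and 25 in Twist2, and a GC content of 66.0% and 64.7%. Meox2 had 12 CpG and 60.7% GC. Over 32851 promoter windows of this length the median was 7 CpG and 52.7% GC, and 84.5% of windows held fewer CpG than Twist1. Among the other members, Prrx2 had 28 CpG, Tcf21 had 8 and Prrx1 had 6. TATAAA was found in 13.6% of all windows, GGGCGG in 35.7% and CCAAT in 37.4%, each on either strand. An E-box (CANNTG, which reads the same on both strands) stood in 72.3% of all windows, in that of Meox2, and in none of the other 5. A match is a word in a window and was not read as a bound site.

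Signal on the arrays was of similar quality throughout, with 71.9% to 75.8% of the 59305 non-control spots well above background and 0 saturated. The titles number the 6 KO arrays as biological replicates 1 to 6, but their descriptions share a first number in 3 pairs, and arrays of a pair correlated with r from 0.9944 to 0.9956 over probes, against 0.9622 to 0.9786 for the 33 other pairs of arrays. Each pair (replicates 1 with 4, 2 with 5, and 3 with 6) was therefore averaged into KO sample 1, 2 or 3 and counted once. This choice bears on Twist1, as given below. No animal is named for any sample, so p-values may measure only a technical spread between these samples, and so few arrays limit the precision. The title, source and description of KO replicate 1 call it KO, and its genotype field says wild type. It correlated with KO replicate 4 at 0.9953 and with WT replicates 1, 2 and 3 at 0.9663, 0.97 and 0.9622, and it was kept as KO. Bmi1 itself gave log2 signals of 0.58, 0.71 and 0.48 in the KO samples, against 0.40, 0.61 and 0.48 in WT (difference 0.10 ± 0.13, SE), and 0.21 ± 0.14 at a second probe. A probe outside the deleted part checks nothing, so each direction below is that of samples labelled KO over samples labelled WT. All 18 satellite cell markers listed, among them Pax7, Myf5, Itga7 and Cd34, were measured and well above background on all 9 arrays. The arrays lay on 2 slides, with 3 KO and 2 WT arrays on slide 1 and 3 KO and 1 WT on slide 2, and differences are also given for each slide and with a slide term. Each KO sample averages both slides, so only WT samples inform that term.

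A level below is the log2 of the processed signal minus the array's 75th percentile, so that 0 is a signal at that percentile and each unit down is a halving. Differences are KO minus WT on this scale, with the SE of limma's fit of 3 KO against 3 WT samples over 42981 probes that exceeded background clearly on 3 or more of the 9 arrays. A probe was called at an adjusted p (Benjamini-Hochberg) under 0.05. All 11 member probes passed the filter, Prrx2 only through KO arrays, and 8 of them were well above background on all 9 arrays. Levels of different probes are not comparable with each other. A signal summed over a list, or a gene's share of it, therefore describes probe signal and not amounts of RNA.

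None of the 11 member probes was called by limma (0 of 11), where 21 of all 42981 probes were (0.0489%, and 0.0465% with KO higher). At an unadjusted p under 0.05 there were 3, all higher in KO (6.49% of all probes were past this p and higher in KO). The mean was higher in KO for 10 of 11 probes (48% of all probes), with a median difference of 0.48 over the 11 and of -0.01 over all probes. All 3 KO samples lay above all 3 WT samples for Twist1, Twist2, Meox2 and Tcf21 (4 of 11, against 8.59% of all probes), and for 0 of 11 did they all lie below (7.94% of all probes). Without the array of KO replicate 1 these were 5, with Prrx2 added (8.34% of all probes), and after the normexp background correction 2, Twist1 and Meox2 (7.41%). Prrx2 passed the filter through KO arrays alone, so its direction in these counts and in the median is not independent of the filter. The members and the comparison were chosen with earlier results of these arrays known, and no test was made on them as a group.

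**Figure D1:**
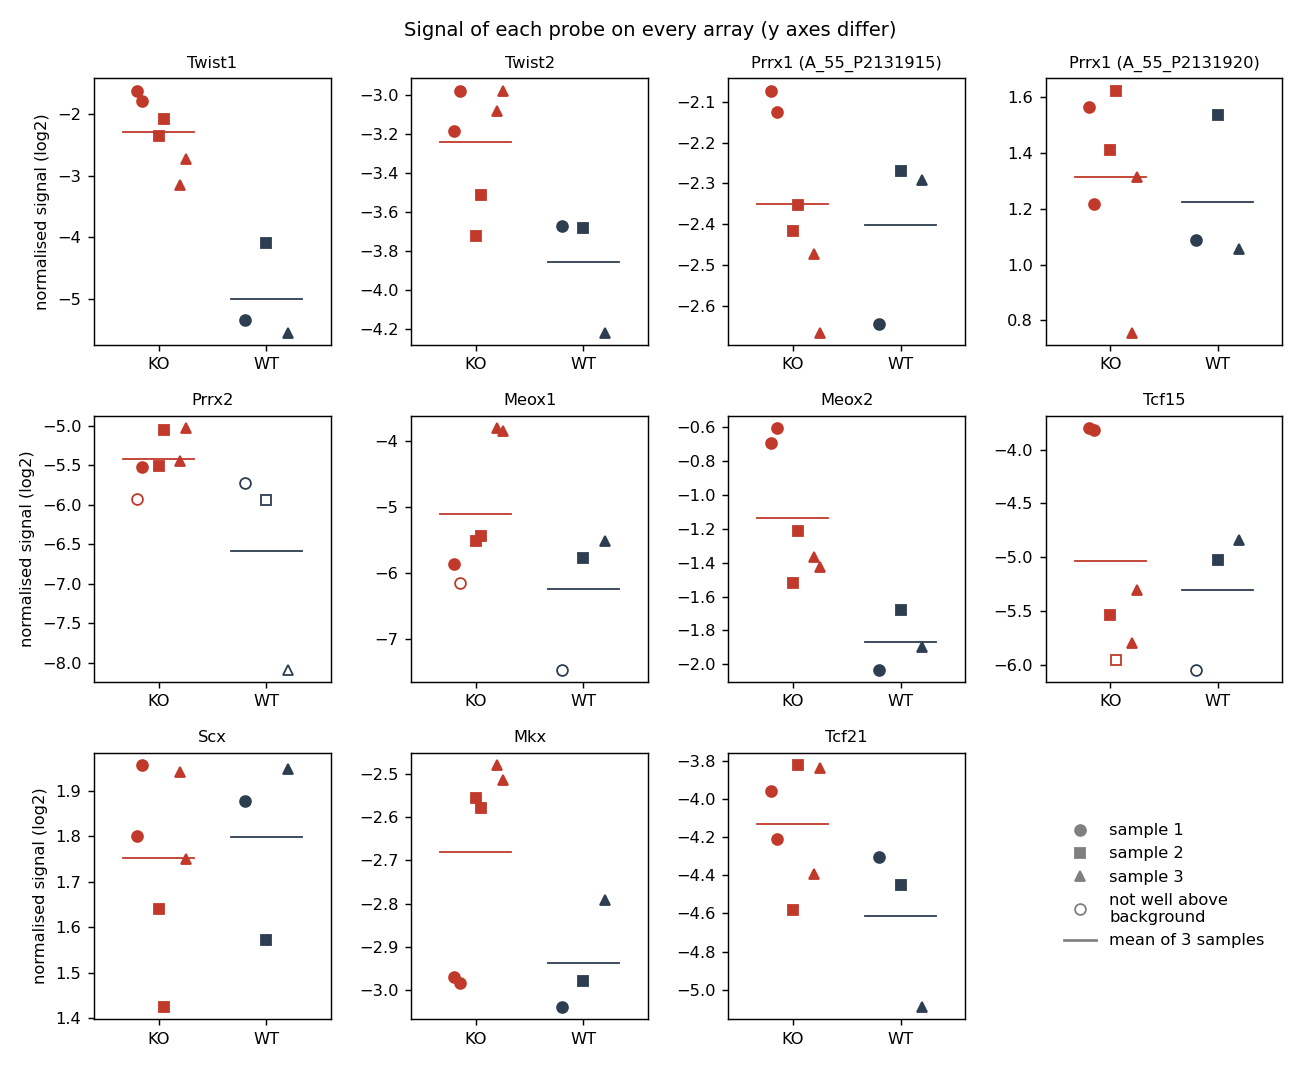
Normalised log2 signal (y axis, in log2 units relative to the 75th percentile of the array) of each of the 11 probes on each of 9 arrays, KO left and WT right, with symbols for the sample and open symbols for spots not well above background. Arrays of a KO pair lie side by side; Twist1 is higher on all 6 KO arrays than on any WT array, while Scx and both Prrx1 probes overlap.

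Twist1, a bHLH factor of cranial and limb mesenchyme that holds cells in an undifferentiated state, stood furthest apart. Its level was -1.71, -2.21 and -2.94 in KO samples 1, 2 and 3, against -5.35, -4.09 and -5.55 in WT samples 1, 2 and 3. All 6 KO arrays lay above the 3 WT arrays, and the lowest KO sample was still above the highest WT one. In units of the scanner the processed signal was 405 and 324 in the arrays of KO sample 1, 262 and 309 in those of sample 2, and 126 and 189 in those of sample 3, against 29.0, 80.1 and 22.5 in WT. Twist1 was therefore dim in WT, though well above background on each array. The means were -2.29 ± 0.62 in KO and -5.00 ± 0.79 in WT (SD, n = 3 each), a difference of 2.71 ± 0.49 (95% interval 1.52 to 3.90, 6.53-fold).

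This difference was not called by limma (unadjusted p = 0.00141, adjusted p = 0.142). Ranked from the most raised in KO downward, it was 8th of the 37035 probes well above background on all arrays and 81st of the 42981 kept. By p it ranked 425th of those 42981. The exact two-sided permutation p was 0.1, the smallest that 3 samples against 3 allow. The difference was 3.01 on slide 1, 1.95 on slide 2 (no test, 1 WT array) and 2.48 with a slide term (limma adjusted p = 0.193). After normexp with an offset of 50, which draws dim values together, it was 1.51 and was called (limma adjusted p = 0.0462, with 0.656% of all probes called). It was also called with all 9 arrays as separate samples (adjusted p = 0.00973, 3.81% of all probes called), with sample as a random block (0.0304, 1.42%) and with slide added to that block (2.65, adjusted p = 0.0329, 0.847%). Those fits take degrees of freedom from arrays rather than samples, so their p may be too small. Leaving out 1 sample at a time gave 2.42 (without KO sample 1) to 3.16 (without WT sample 2), with limma adjusted p from 0.171 to 0.354. The probe lies at chr12:34644411-34644470 in mm9, the build of the array design.

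Twist2, the close paralog of Twist1 that acts in dermis and in progenitors of bone and muscle, was nearer between the groups. It gave -3.08, -3.62 and -3.03 in KO, against -3.67, -3.68 and -4.22 in WT. The KO samples lay above the WT samples, but KO sample 2 exceeded the closest WT sample by no more than the scatter between arrays of a pair (SD 0.127). The difference was 0.61 ± 0.24 (95% interval 0.03 to 1.20; limma unadjusted p = 0.043, adjusted p = 0.448), and 0.68 on slide 1, 0.45 on slide 2 and 0.57 with a slide term. After the normexp correction it was 0.33, and there KO and WT overlapped. The probe lies at chr1:93744519-93744577.

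**Figure D2:**
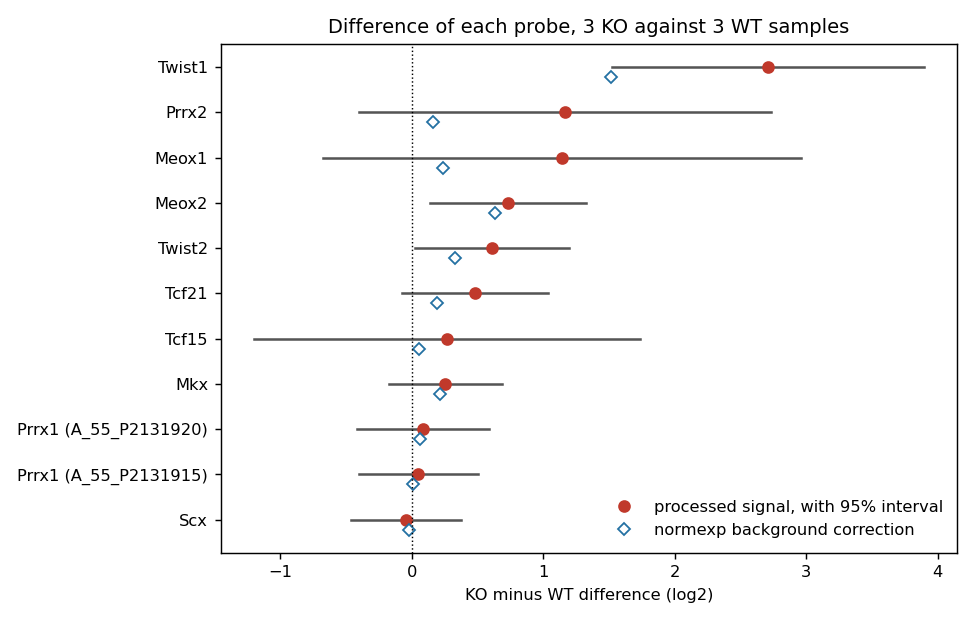
KO minus WT difference in log2 units (x axis) of each probe, from limma on 3 KO and 3 WT samples, with points for the processed signal, lines for its 95% interval and open diamonds for the normexp correction. Twist1 stands at 2.71, its interval of 1.52 to 3.90 clear of 0; Meox2 and Twist2 also have intervals above 0 before adjustment, and the interval of Scx runs from -0.46 to 0.37.

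Prrx1 and Prrx2 are paired-related homeodomain factors of limb bud mesenchyme, and Prrx1 marks connective tissue cells of adult limb muscle. Prrx1 was bright in both groups. Its probe A_55_P2131920 (chr1:165175375-165175434, mm9) gave 1.39, 1.52 and 1.03 in KO, against 1.09, 1.53 and 1.06 in WT. The ranges overlapped throughout, and the difference was 0.09 ± 0.20 (limma adjusted p = 0.934, 95% interval -0.41 to 0.59). The other probe, A_55_P2131915 (chr1:165185408-165185467), was designed against a different transcript variant. It gave -2.10, -2.38 and -2.57 in KO, against -2.64, -2.27 and -2.29 in WT, again overlapping, and differed by 0.05 ± 0.18 (adjusted p = 0.959, interval -0.40 to 0.50). Both intervals leave out a difference as large as 1 in either direction. Within slides 1 and 2 the first probe differed by 0.06 and -0.03 and the other by 0.13 and -0.09.

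Prrx2 was dim. It was well above background on 5 of 6 KO arrays and on 0 of 3 WT arrays, with levels of -5.73, -5.28 and -5.23 in KO, against -5.72, -5.94 and -8.09 in WT. KO sample 1 and WT sample 1 were alike, and WT sample 3 alone was far lower. Since no WT array was well above background, its values there only bound the level. The fitted difference was 1.17 ± 0.64 (95% interval -0.40 to 2.73, limma adjusted p = 0.606). It was 1.41 on slide 1, 0.60 on slide 2, 1.01 with a slide term, 0.41 without WT sample 3 and 0.17 after normexp.

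The homeobox genes Meox1 and Meox2 pattern the somite and are required in the mouse for sclerotome derivatives and for limb muscle. Meox2, known also from endothelium, was measured well on all arrays. It gave -0.65, -1.37 and -1.39 in KO, against -2.03, -1.68 and -1.90 in WT. The KO samples were all higher, with sample 1 well above the other KO samples. The difference was 0.73 ± 0.24 (95% interval 0.14 to 1.32, 1.66-fold; limma unadjusted p = 0.0235, adjusted p = 0.367). It was 0.80 on slide 1, 0.57 on slide 2, 0.68 with a slide term and 0.64 after normexp, so that the background correction moved it far less than Twist1. Without KO sample 1 it was 0.49. The probe lies at chr12:37905809-37905868 in mm9.

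Meox1 was near background, being well above it on 5 of 6 KO and 2 of 3 WT arrays. Its levels were -6.01, -5.48 and -3.82 in KO, against -7.47, -5.78 and -5.51 in WT. KO sample 3 stood apart from all the rest. Its processed signal was 80.2 and 86.9 on both arrays of that sample, as compared to 15.8 to 29.9 on the other KO arrays and 6.7 to 24.9 in WT. The other KO samples overlapped WT, and the difference of 1.15 ± 0.74 was not called (limma adjusted p = 0.673). It was 0.50 without KO sample 3, 0.54 without WT sample 1 and 0.24 after normexp, and 1.33 on slide 1, 0.72 on slide 2 and 1.03 with a slide term.

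Tcf15 (Paraxis), a bHLH factor needed in the mouse to form epithelial somites and also known from heart endothelium as a partner of Meox2, had a similar pattern with another sample. It gave -3.81, -5.74 and -5.55 in KO, against -6.05, -5.03 and -4.84 in WT. KO sample 1 was highest, at a processed signal of 89.7 and 79.8, and the other KO samples lay within the WT range. The difference was 0.27 ± 0.60 (limma adjusted p = 0.928). Its sign turned without KO sample 1 (-0.34) and without WT sample 1 (-0.10), and within slides 1 and 2 it was 0.39 and 0.01. Tcf15 was well above background on 5 of 6 KO and 2 of 3 WT arrays.

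Scx (Scleraxis), the bHLH factor that marks tendon and ligament progenitors, did not separate the groups. It was bright on all arrays, at 1.88, 1.53 and 1.85 in KO, against 1.88, 1.57 and 1.95 in WT. The difference was -0.05 ± 0.17 (limma adjusted p = 0.96; 95% interval -0.46 to 0.37). It was -0.07 on slide 1, 0.09 on slide 2 and 0.01 with a slide term, so the sign turned with the slide. In RefSeq (GRCm38.p6) the whole of Scx lies within the span of Bop1, a gene of ribosome assembly. The strand kept in labelling was not stated, so RNA of Bop1 could contribute to this spot and was not told apart. The Bop1 probe gave 3.23, 3.11 and 3.21 in KO, against 3.53, 3.32 and 3.49 in WT, a difference of -0.26 (adjusted p = 0.537). Tcf21 likewise lies within a long non-coding gene, Gm10824, that has no probe of that name here.

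Mkx (Mohawk), a homeodomain factor of tendon that acts after Scx, gave -2.98, -2.57 and -2.50 in KO, against -3.04, -2.98 and -2.79 in WT. KO samples 2 and 3 were above WT and KO sample 1 was level with it. Its 2 arrays per KO sample were the most alike of any member (SD within pairs 0.0177). The difference was 0.26 ± 0.18 (limma adjusted p = 0.694, 95% interval -0.17 to 0.68), and 0.24 on slide 1, 0.29 on slide 2 and 0.27 with a slide term.

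Tcf21 (capsulin), a bHLH factor of visceral and head muscle mesenchyme and of fibroblasts, gave -4.08, -4.20 and -4.12 in KO, against -4.31, -4.45 and -5.09 in WT. The KO means were all higher, but single arrays overlapped, with processed signals of 53.2 to 92.0 in KO against 30.9 to 62.5 in WT. The scatter between arrays of a pair (SD 0.399) was close to the difference, 0.48 ± 0.23 (limma adjusted p = 0.532). It was 0.30 on slide 1, 0.58 on slide 2, 0.44 with a slide term and 0.25 without WT sample 3.

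**Figure D3:**
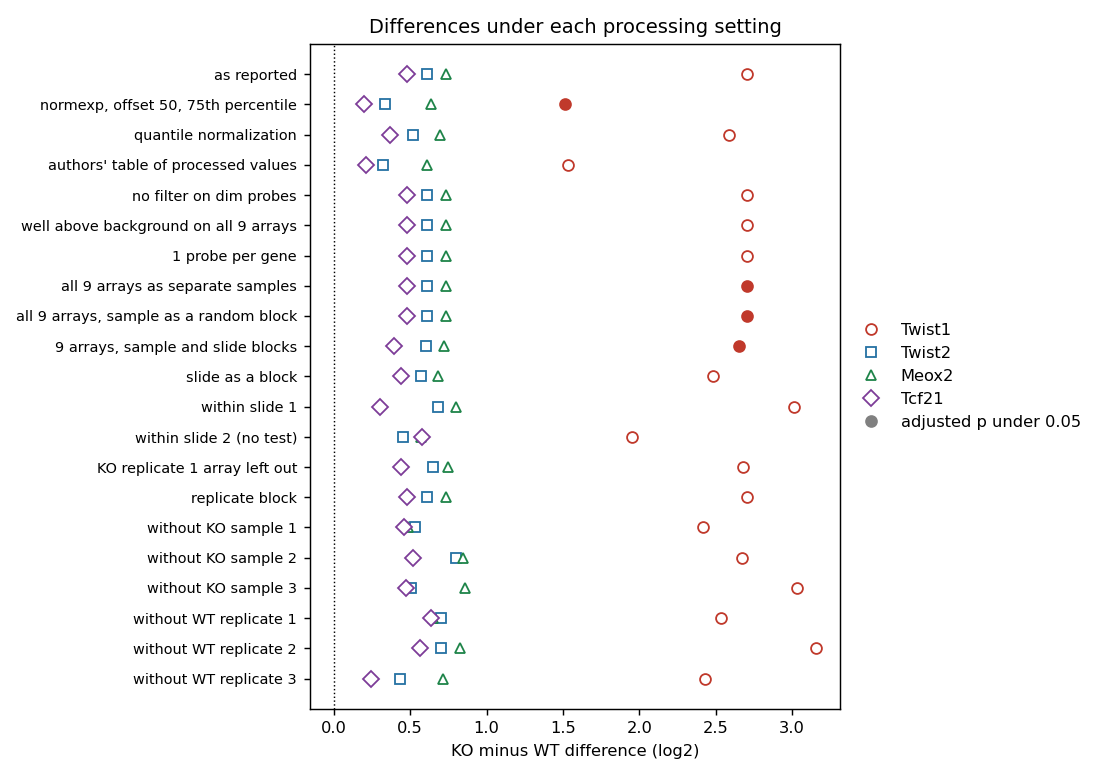
KO minus WT difference in log2 units (x axis) of the 4 members whose KO samples all lay above WT, under each processing setting (rows), with filled symbols where limma's adjusted p was under 0.05. All points lie above 0; Twist1 ranges from 1.51 to 3.16 and is the only one of the 4 filled, in 4 settings, while Twist2, Meox2 and Tcf21 stay between 0.20 and 0.86.

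Genes with the most similar profile were sought among 20299 named probes well above background on all arrays, by the root mean square difference of the 6 sample values after each was centred on its mean. For Twist1 the closest was Adm, the vasodilator peptide adrenomedullin (0.395), with -1.20, -1.35 and -1.34 in KO against -4.42, -2.72 and -4.01 in WT, followed by Hopx (0.478) and Slc10a6 (0.478). For Meox2 it was the semaphorin and VEGF co-receptor Nrp2 (0.0505), whose KO samples gave 0.89, 0.29 and 0.21 against -0.41, -0.11 and -0.39 in WT, then Synj2 (0.0786) and Wnt10a (0.108). For Prrx1 these were Atf1 (0.0408), Tmem41b (0.048) and Etv5 (0.0512), and for Scx they were Erc2 (0.0307), Gabrb2 (0.0312) and Olfr821 (0.0325). Scx and Prrx1 vary so little over samples that many probes come close to them. With 6 samples and so many candidates such likeness describes these samples only.

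Other genes of the same tissues were taken from lists, with 1 probe per gene, the kept probe of highest mean. No gene of these lists was called by limma, with p adjusted over all 42981 probes kept, as for the members. On that adjustment 0.0494% of all 28364 genes and unnamed features were called, while a separate fit of these features alone called 39. Listed genes were not sought among those 39. Of the 28364, 6.43% had an unadjusted p under 0.05 with KO higher and 3.92% with KO lower. KO samples all lay above WT in 8.57% and below WT in 8.12%, and the median difference was -0.02. Of 24 somite and paraxial mesoderm factors 21 were measured, with a median difference of 0.14. At an unadjusted p under 0.05, 5 were higher in KO and 0 lower. They included Foxc1 (1.47 ± 0.27, limma adjusted p = 0.15), a forkhead factor of somite and mesenchyme, and Pax3 (1.22 ± 0.23, adjusted p = 0.153), the factor of limb muscle progenitors. Pax9 (1.82) and Tbx18 (1.55), of sclerotome and of the somite's anterior part, were the next. Pax3 gave -0.62, -0.91 and -0.21 in KO, against -1.97, -1.92 and -1.51 in WT, without overlap.

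Of 26 limb bud mesenchyme factors 16 were measured, and 9 of the others, among them Tbx5, Hand1, Hand2 and Pitx1, were not well above background on any array. The median difference of those measured was 0.40, with 3 higher in KO at an unadjusted p under 0.05 and 0 lower. By p, the first 4 were Shox2 (1.51), Tbx3 (0.58), Sox9 (0.52) and Osr1 (0.87), with limma adjusted p from 0.277 to 0.469. Osr1, a factor of connective tissue progenitors, was well above background on all 6 KO arrays but on 1 of 3 WT arrays. Lhx9 was well above it on 4 of 6 KO and 0 of 3 WT arrays. That gene passed the filter through KO arrays alone, so its direction in the median is not independent of the filter.

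Genes of tendon differentiation and matrix had a median difference of 0.85, and 25 of 26 had a higher mean in KO. At an unadjusted p under 0.05, 13 were higher and 0 lower, and KO samples lay above WT in 12. The 4 of smallest p were the matricellular Ccn2 (2.69 ± 0.32, limma adjusted p = 0.083) and Tnc (1.88 ± 0.26), and the collagen genes Col1a1 (1.91 ± 0.27) and Col1a2 (1.23 ± 0.19). Summed over the list, the signal relative to the 75th percentile was 316 to 353 in KO samples, against 244 to 266 in WT samples. Scx, known to activate Col1a1 and Tnmd in tendon cells, differed by -0.05 in the same samples, at a spot to which Bop1 RNA could contribute. Its part in the values of this list was not tested. The bHLH partners and antagonists had a median of 0.21 over 15 measured genes, with 2 higher and 0 lower at an unadjusted p under 0.05. They were the repressor Bhlhe40 (0.75) and Msc (musculin, 0.56), and Id2 (-0.38) and Id4 (0.50) came next, with limma adjusted p from 0.275 to 0.54.

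**Figure D4:**
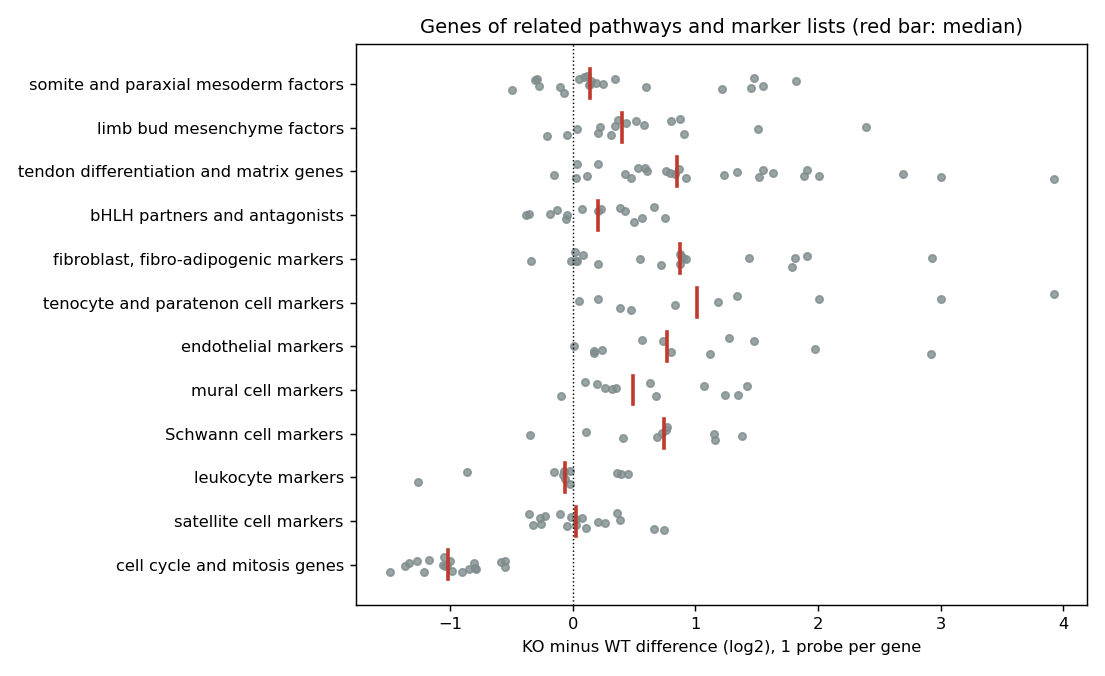
KO minus WT difference in log2 units (x axis) of each measured gene (grey points, 1 probe per gene) in the pathway and cell type marker lists, with the median of each list as a red bar. Medians run from -1.02 for cell cycle genes to 1.01 for tenocyte markers, with satellite cell markers at 0.02.

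Marker lists of other muscle cell types held no called gene either, with p adjusted over all probes kept. In bulk samples of sorted cells, fewer cells of a type and less RNA per cell cannot be told apart. Of 20 fibroblast and fibro-adipogenic markers 19 were measured, 17 had a higher mean in KO, and 9 were higher at an unadjusted p under 0.05 (median difference 0.87). Their summed signal was 144 to 158 in KO samples, against 115 to 126 in WT. Col3a1 made up 56.2% of it, and without that gene it was 69.2 to 77.6 in KO against 42.0 to 50.6 in WT. Pdgfra, which defines fibro-adipogenic progenitors, was at -4.42, -4.28 and -3.64 in KO and not well above background on any of the 3 WT arrays (-7.97, -6.94 and -6.23). It passed the filter through KO arrays alone, so its direction in these counts and in the median is not independent of the filter. Dcn and Col1a1 were bright in both groups and differed by 0.92 and 1.91. Tcf7l2 was lower in KO (-0.34), with all KO samples below WT. Little difference was seen for Col3a1 (0.03), Fbn1 (0.03), Pi16 (0.02), Clec3b (0.08) and Dpt (-0.01). Dcn, Col1a1 and Col3a1 are also in the tendon differentiation and matrix list, so the lists are not independent. Prrx1, another gene of such cells, differed by 0.09 and 0.05 at its probes. The part of fibroblasts and fibro-adipogenic cells in the values of Twist1, Twist2, Prrx1 and Tcf21 was not tested.

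All 10 tenocyte markers were measured and had a higher mean in KO, 3 of them at an unadjusted p under 0.05 (median difference 1.01), with a summed signal of 46.2 to 62.7 in KO samples against 38.2 to 45.3 in WT. Chodl made up 82.3% of this sum, and without it the range was 7.32 to 22.4 in KO against 3.84 to 5.39 in WT. Among KO samples, all 10 markers were highest in sample 3, the sample in which Meox1 stood apart. Comp, a cartilage and tendon matrix protein, was at -1.60, 0.74 and 3.18 in KO against -2.50, -3.87 and -3.09 in WT, and Fmod at -3.07, -0.49 and 0.71 in KO against -5.57, -3.05 and -3.24 in WT. Tnmd, the defining marker, gave -5.25, -2.16 and -0.96 in KO, against -7.76, -3.27 and -3.35 in WT. Thbs4, Comp, Fmod, Tnmd, Cilp2 and Kera are also in the tendon differentiation and matrix list, so the lists are not independent. Thbs4, Comp and Fmod are the 3 at an unadjusted p under 0.05 (limma). Of the KO samples, sample 3 had the highest Meox1, Mkx, Twist2 and Prrx2. It had the lowest Twist1, Meox2 and Prrx1 (at both probes). Whether tendon cells have a part in the Meox1, Mkx or Twist1 values was not tested.

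All 12 endothelial markers had a higher mean in KO (median difference 0.77, 4 at an unadjusted p under 0.05). The summed signal was 5.82 to 8.79 in KO samples, against 4.42 to 5.62 in WT, and KO sample 1 was the highest. Without Tek, 57.5% of the sum, the groups overlapped, at 2.20 to 4.82 in KO against 1.81 to 2.25 in WT. KO sample 1 was also the highest of all samples for Meox2, Tcf15 and Twist1, and likewise for Tcf21 and for Prrx1 at A_55_P2131915. It had the highest Scx among KO samples as well. Its Pecam1 (CD31, a negative marker of the sort) was at -1.78, with -3.25 and -3.25 in the other KO samples and -4.36, -3.24 and -6.60 in WT, and its Cldn5 at -1.57, with -3.80 and -3.65 in the other KO samples and -3.95, -3.63 and -3.85 in WT. Ly6a (Sca1, also a negative marker of the sort) was at -1.61, -5.74 and -3.32 in KO, against -5.35, -4.79 and -5.99 in WT. Without KO sample 1 the difference was 2.42 for Twist1, 0.49 for Meox2 and -0.34 for Tcf15. The other KO samples may hold endothelial RNA too, so leaving out 1 sample cannot show its part. The part of endothelial RNA in the Meox2, Tcf15 and Twist1 values was not tested. Among 12 mural cell markers 11 had a higher mean in KO (median 0.49, 4 at an unadjusted p under 0.05), led by Pdgfrb (1.35, limma adjusted p = 0.0567), with a summed signal of 161 to 174 in KO samples against 164 to 167 in WT. Without Mcam, 62.5% of that sum, it was 64.7 to 69.5 in KO against 54.1 to 60.6 in WT.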

How the data were processed

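The authors deposited scanner output of 9 Agilent arrays of 1 colour, in which each spot has a linear intensity. Per the file headers, Feature Extraction 10.7.3.1 removed additive and multiplicative spatial trends and gave dim spots a small positive surrogate, and folds near background are therefore unreliable. The deposited table of processed log2 values matched normexp (offset 50) plus quantile normalization of these arrays (r of at least 0.999976, columns sharing a median of 7.806). It served as an alternative, its method being unstated.

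Levels are log2 processed signal minus the 75th percentile of non-control spots on the same array. Outlier spots (93 to 148 per array) were dropped and repeat spots averaged. This emptied 35 probe values, 0 of them in members or listed genes, and each took that probe's mean on its remaining arrays. Of 55681 probes, 42981 were kept and 12700 were too dim. With 6 KO arrays of 9, this filter favours genes seen in KO alone. The groups entered lmFit and eBayes (limma 3.58.1, R 4.3.3, statmod 1.5.0; Python 3.11.15, pandas 2.3.3, scipy 1.17.1, matplotlib 3.10.9), with 4 residual and 1.99 prior degrees of freedom, a threshold of 0.05, and a check on simulated data. Names of other genes were updated through RefSeq (GRCm38.p6): 26300 probes by accession, 2044 by symbol, 355 by synonym, 26982 as in the files. All members are named. From each pathway list the text names up to 4 measured genes of smallest p, and from the marker lists (fibroblast, tenocyte, endothelial, mural, Schwann, leukocyte, satellite cell) and the cell cycle list the defining genes. Comp, Fmod, Cldn5, Itgam, Ube2c, Ccnb1, Sdc4, Lhx9, Tcf7l2, Fbn1, Pi16, Clec3b and Dpt were picked after their values were seen. Thbs4, Kera and Cilp2 are named as members of more than 1 list. The members, lists, tests, averaging of KO pairs and alternatives were chosen with earlier results of these data known. Alternatives were the background correction, normalization, filter, slide, unit of replication and each sample left out. The count of members with samples apart was recomputed in settings chosen after seeing the data.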

Additional observations from a re-analysis of the deposited data

How the results depend on the processing

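Of 11 member probes, limma called 0 as reported, and 1, Twist1, after normexp, with all 9 arrays as separate samples, with sample as a random block, and with sample and slide as blocks, where it differed by 1.51, 2.71, 2.71 and 2.65. In the other settings with a test the count was 0. The count over all probes was 21 as reported and 282 after normexp, 208 in the authors' deposited table, 62 among probes well above background on all arrays, 39 with 1 probe per gene, 1639 with separate arrays, 610 with sample as a random block, 364 with slide added, 1 with slide as a block and 0 within slide 1 (limma, 4335 probes at an unadjusted p under 0.05). Leaving out 1 sample gave 0 to 3. Every such fit has fewer samples, and the part of single samples in the calls was not tested. Members whose KO samples all lay above WT were 4, and 2 after normexp. With the KO replicate 1 array left out they were 5, the addition being Prrx2, which passed the filter through KO arrays alone. Within slide 2 Twist1 differed by 1.95.

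The fit with the replicate number as a block called 0 probes (4361 at an unadjusted p under 0.05) and 0 members. Same-numbered KO and WT samples deviated from their group means with correlations of -0.027, 0.015 and 0.019. Differently numbered ones gave -0.065 to 0.051. Correlations from 3 samples per group cannot settle whether the numbers pair samples, so this was not decided. Signs turned for values near 0. Scx was 0.023 in the authors' deposited table and 0.0109 with slide as a block, and ran from -0.16 to 0.064 with 1 sample left out. Prrx1 at A_55_P2131915 was -0.0192 after quantile normalization and -0.0245 in the authors' deposited table, and -0.0747 to 0.16 with 1 sample left out, while A_55_P2131920 ran from -0.0133 to 0.24. Tcf15 ran from -0.34 to 0.63. The cause was not tested. Twist1, Twist2, Meox2, Tcf21, Mkx, Prrx2 and Meox1 kept their direction in all settings run. Dim signal limits Prrx2, Meox1 and Tcf15, which were not well above background on all 9 arrays.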

Other observations

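Genes of the cell cycle and mitosis were lower in KO in these samples. All 20 listed were measured and had a lower mean in KO, with a median difference of -1.02. At an unadjusted p under 0.05 limma had 14 of them, 0 were called after adjustment, and KO samples all lay below WT in 16 (8.12% of all genes). The mitotic ubiquitin enzyme Ube2c differed by -1.49 (limma adjusted p = 0.141) and cyclin B1 (Ccnb1) by -1.34. The summed signal of the list was 52.1, 60.0 and 31.1 in KO samples 1, 2 and 3, against 78.3, 83.3 and 93.4 in WT samples. KO sample 3, which had the highest Meox1 and the lowest Twist1 among KO samples, was also the lowest here.

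Schwann cell markers had a median difference of 0.74, with 10 of 12 measured and 7 higher in KO at an unadjusted p under 0.05, 0 of them called by limma. The myelin gene Mbp (1.38) was the first by p, and the summed signal was 66.4 to 69.3 in KO samples against 52.3 to 62.1 in WT. Without Pmp22, 51.1% of that sum, it was 33.8 to 37.5 in KO against 23.2 to 29.7 in WT. Leukocyte markers did not share this direction, with a median of -0.07 over 11 measured genes. Itgam (CD11b, a negative marker of the sort), read only at its kept probe of highest mean, was bright in both groups, between 6.85 and 7.11 in all 6 samples. It made up 95.9% of the summed signal of 121 to 134 in KO samples against 124 to 144 in WT. That is a share of probe signal, and the cause of the bright Itgam signal was not tested. The other 10 summed to at most 5.79 in KO and 5.73 in WT, and Ptprc (CD45) was at -3.69, -3.68 and -3.24 in KO, against -3.21, -3.18 and -4.15 in WT. Lyz2 was not well above background on any array. Satellite cell markers had a median of 0.02 over 18 genes, with 10 higher and 8 lower means in KO and a summed signal of 244 to 256 in KO samples against 247 to 270 in WT. Sdc4, a surface proteoglycan of satellite cells, differed by 0.75 (limma adjusted p = 0.141).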
